A study of Mus musculus with 40 samples.

Results

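Krüppel-like factors (Klf genes) encode transcription factors with a conserved zinc-finger end that binds CACCC and GC-rich boxes of promoters, and 10 of them (Klf2, Klf4, Klf6, Klf7, Klf9, Klf10, Klf12, Klf13, Klf15 and Klf16) were followed in the medial prefrontal cortex of mice. They were found in the deposited count table by their Ensembl identifiers with the version removed, which gave 10 of its 56980 genes. RNA selected for poly(A) tails came from wild type female C57BL/6J mice, in 8 groups of 5 libraries each. Adults started on postnatal day 55 and adolescents on postnatal day 25. At each age the groups were antibiotics with morphine, water with morphine, antibiotics with saline, and water with saline. Antibiotics (Abx in the labels, with no agent named) were taken orally, and morphine (15 mg/kg) or saline was injected under the skin for 5 days. The title concerns how a brief course of antibiotics affects morphine reward and prefrontal expression at the 2 ages. The labels give brain as the tissue and all as the cell type, and they do not say whether each library came from 1 mouse, so p-values measure the spread between these libraries.

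The family acts largely through competition for the same boxes. Some members recruit the acetyltransferases p300 and CBP and activate, while others recruit the Sin3A or CtBP corepressors and silence. In brain the members are known for separate tasks: Klf9 and Klf15 respond to steroid and thyroid hormones, Klf10 answers TGF-beta, Klf2 and Klf4 mark the lining of blood vessels, and Klf6 and Klf7 support the growth of axons while Klf4 and Klf9 restrain it. Klf9, Klf10 and Klf15 are also known as outputs of the circadian clock in mouse tissues.

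The promoters of the members that the results turn on are shown first, because the family binds CACCC boxes and 6 of the 8 member promoters found carry one. RefSeq promoters were found for 8 of the 10 members (all but Klf10 and Klf16). Each line gives the 250 bases before the RefSeq start of the gene, 5′ to 3′ on the strand of the gene (build GRCm38.p6, the same build as mm10), with the CACCC box, the E-box CACGTG and the half-site TGACG of the cAMP response element in capitals on either strand. Klf2 is at chr8:72318812-72319061 and Klf15 at chr6:90462326-90462575 on the plus strand, Klf7 is at chr1:64121390-64121639 on the minus strand and Klf9 is at chr19:23140976-23141225 on the plus strand. The Klf7 stretch lies inside the gene of the GENCODE reference annotation (chr1:64029447-64122282), so it precedes a RefSeq start and not the whole gene. The last bases of the Klf2 stretch also overlap its annotated gene.
Klf2: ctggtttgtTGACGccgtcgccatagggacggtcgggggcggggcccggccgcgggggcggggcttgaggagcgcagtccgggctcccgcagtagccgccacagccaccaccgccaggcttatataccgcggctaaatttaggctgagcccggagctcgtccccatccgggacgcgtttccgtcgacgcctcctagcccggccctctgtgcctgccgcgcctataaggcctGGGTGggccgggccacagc
Klf7: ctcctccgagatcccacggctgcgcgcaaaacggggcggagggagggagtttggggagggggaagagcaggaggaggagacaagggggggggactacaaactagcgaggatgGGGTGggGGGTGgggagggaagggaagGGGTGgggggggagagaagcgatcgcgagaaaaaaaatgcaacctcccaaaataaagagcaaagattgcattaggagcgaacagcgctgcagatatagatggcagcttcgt
Klf9: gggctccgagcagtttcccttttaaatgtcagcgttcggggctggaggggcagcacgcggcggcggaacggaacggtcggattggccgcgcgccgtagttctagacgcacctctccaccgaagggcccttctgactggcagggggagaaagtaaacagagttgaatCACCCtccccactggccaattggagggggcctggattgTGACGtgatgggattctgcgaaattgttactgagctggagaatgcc
Klf15: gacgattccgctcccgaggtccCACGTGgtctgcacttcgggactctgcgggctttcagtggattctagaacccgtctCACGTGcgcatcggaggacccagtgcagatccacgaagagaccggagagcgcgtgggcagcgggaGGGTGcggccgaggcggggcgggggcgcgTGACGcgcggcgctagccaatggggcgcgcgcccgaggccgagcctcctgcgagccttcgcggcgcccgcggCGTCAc
The shown stretch of Klf7 holds 3 CACCC boxes, read on its other strand as GGGTG, and no E-box. The shown stretch of Klf15 holds 2 E-boxes, the element through which clock proteins act, at 228 and 172 bases before the start.

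All 10 members passed the filter on low counts, and their counts lay between 31 for Klf4 and 2966 for Klf9 in a single library. Totals ran from 8.64 to 12.1 M counts per library (M for mega), so that 3 counts stood for 0.248 to 0.347 CPM (the count over the library total in M, scaled by TMM), which covers counting error only. Levels between genes are compared per kilobase of exon. Klf9 was highest at 49.9 ± 5.09 CPM per kb, above 95.0% of the tested genes with a length. Klf13 followed at 28.8 ± 2.52 and Klf16 at 25.5 ± 1.9 CPM per kb (SD, n = 40). Klf6 stood at 12.9 ± 1.56, Klf10 at 9.95 ± 1.99, Klf15 at 8.35 ± 1.81 and Klf7 at 7.48 ± 0.725 CPM per kb. Klf2 had 6.59 ± 1.84, Klf12 4.49 ± 0.669 and Klf4 2.21 ± 0.619 CPM per kb. From Klf6 down to Klf12 neighbours in this order differed by less than the sum of their SDs, and so did Klf13 and Klf16. Of the other Klf genes, Klf3, Klf5, Klf8 and Klf11 were tested, whereas Klf1, Klf14 and Klf17 had at most 7, 16 and 2 counts in any library. Markers of cortical tissue were present: all 13 excitatory neuron markers were tested, with a summed level of 6680 to 8240 CPM over the libraries, while 1 of 6 choroid plexus markers passed the filter.

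**Figure D1:**
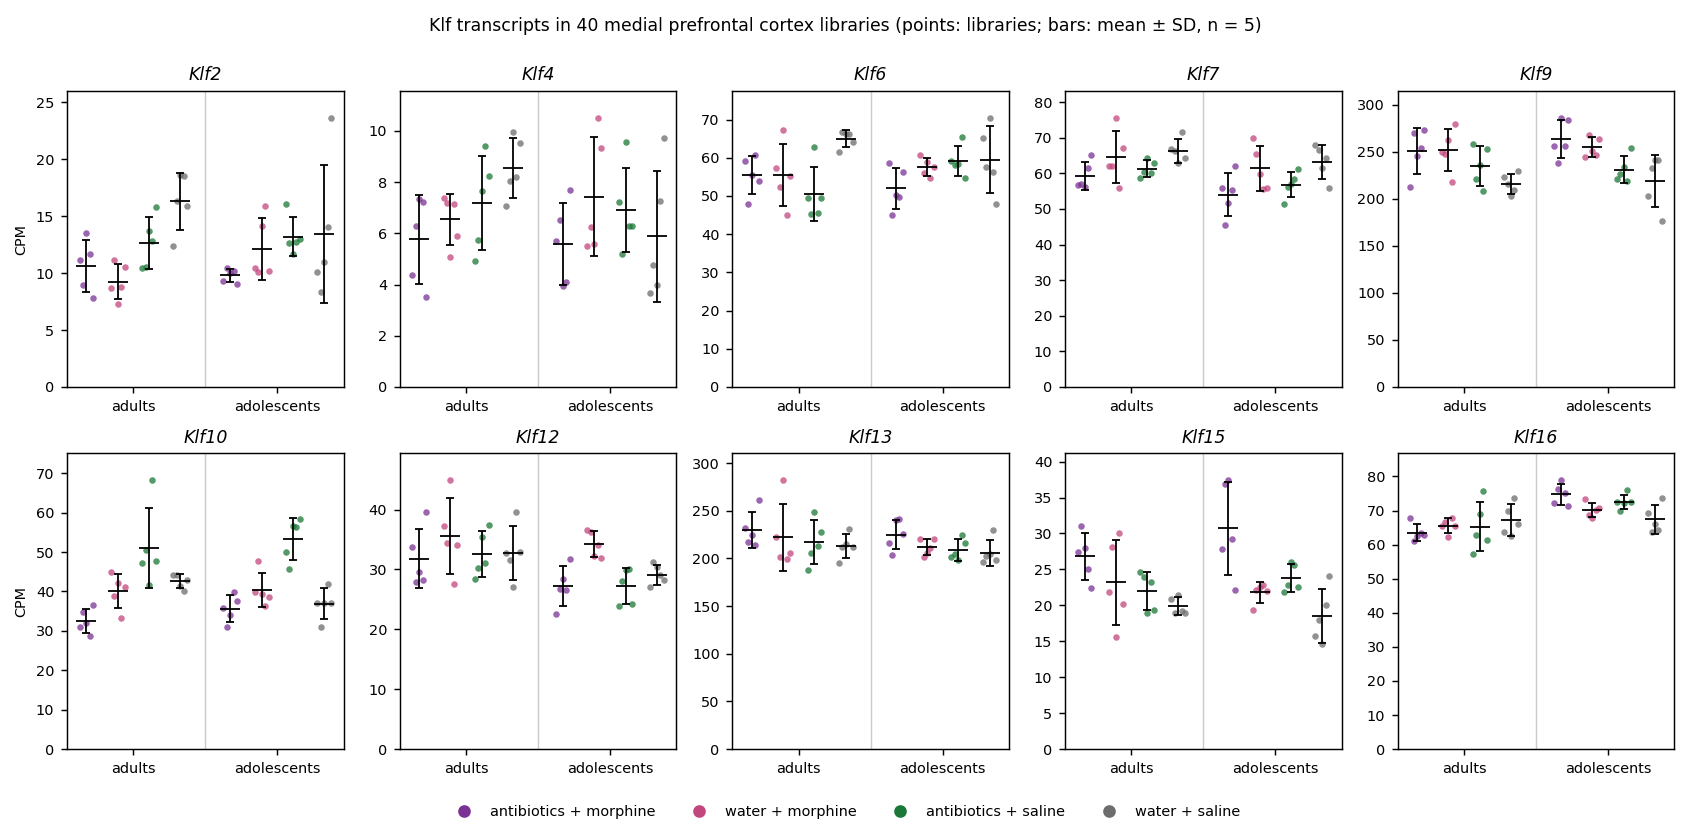
Each panel plots 1 Klf gene in CPM against the 8 groups, adults left and adolescents right of the grey line, with 1 point per library and a bar at the mean ± SD (n = 5). Klf10 is highest in antibiotics and saline at both ages, and Klf2 in adults is highest in water and saline.

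Klf10 and Klf2 were lower and Klf9 and Klf15 higher with morphine when its effect was averaged over both drinks and both ages, and the other 6 members were not called. A gene was called at an adjusted p under 0.05 from edgeR, and at that threshold 4.35% of all 17880 tested genes were called in this average, beside 4 of the 10 members, of which Klf10 is a description because its average contains a comparison that the family was selected on. Antibiotics, averaged likewise over both injections and ages, raised Klf15 and lowered Klf7, so that 2 of 10 members were called where 7.5% of all tested genes were. Averaged over the 4 treatments, adults had lower Klf16 and higher Klf12 than adolescents, 2 of 10 members against 17.9% of all tested genes. That is near the share of all genes, so nothing is read from the count. Here and below, age cannot be told apart from any batch that follows age.

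**Figure D2:**
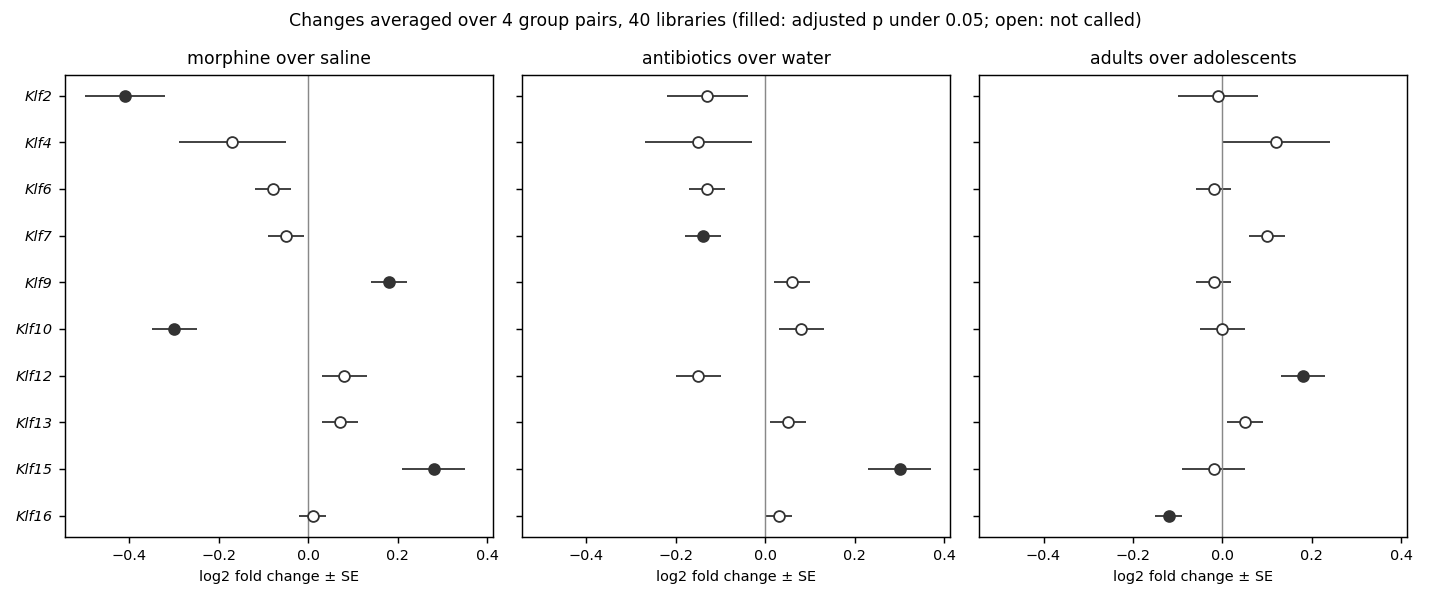
Log2 fold changes (x axis) ± SE of the 10 Klf genes, for morphine over saline, antibiotics over water and adults over adolescents, each averaged over 4 pairs of groups in 40 libraries. Filled points passed an adjusted p under 0.05: 4 with morphine, 2 with antibiotics and 2 with age.

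In single comparisons few members passed the test. Morphine in adults changed 1 of 10 members on antibiotics (Klf10, lower), where 0.213% of all tested genes were called. On water it changed 1 of 10 members in adults (Klf2, lower), where 0.475% were called. In adolescents morphine on water changed 0 of 10 members by edgeR and by DESeq2, where 0.319% of all tested genes were called and 2 members, Klf9 and Klf12, had an unadjusted p under 0.05. Antibiotics under morphine gave 0 of 10 calls in adults by both tools (0.028% of all tested genes; Klf10 alone had an unadjusted p under 0.05) and changed 2 of 10 in adolescents, Klf15 higher and Klf12 lower (7.56% of all tested genes). In saline-injected adults antibiotics changed 0 of 10 members by edgeR (0.0503% of all tested genes) and 1, Klf6, by DESeq2, and 3 had an unadjusted p under 0.05. The family was selected on results of these data, among them the levels of Klf10 in adolescents with morphine against saline on antibiotics and with antibiotics against water under saline. In these 2 comparisons 1 of 10 members, Klf10, lay past the threshold, as did 2.92% and 0.0391% of all tested genes, and nothing is read from those counts: the adolescent values of Klf10 are a description.

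**Figure D3:**
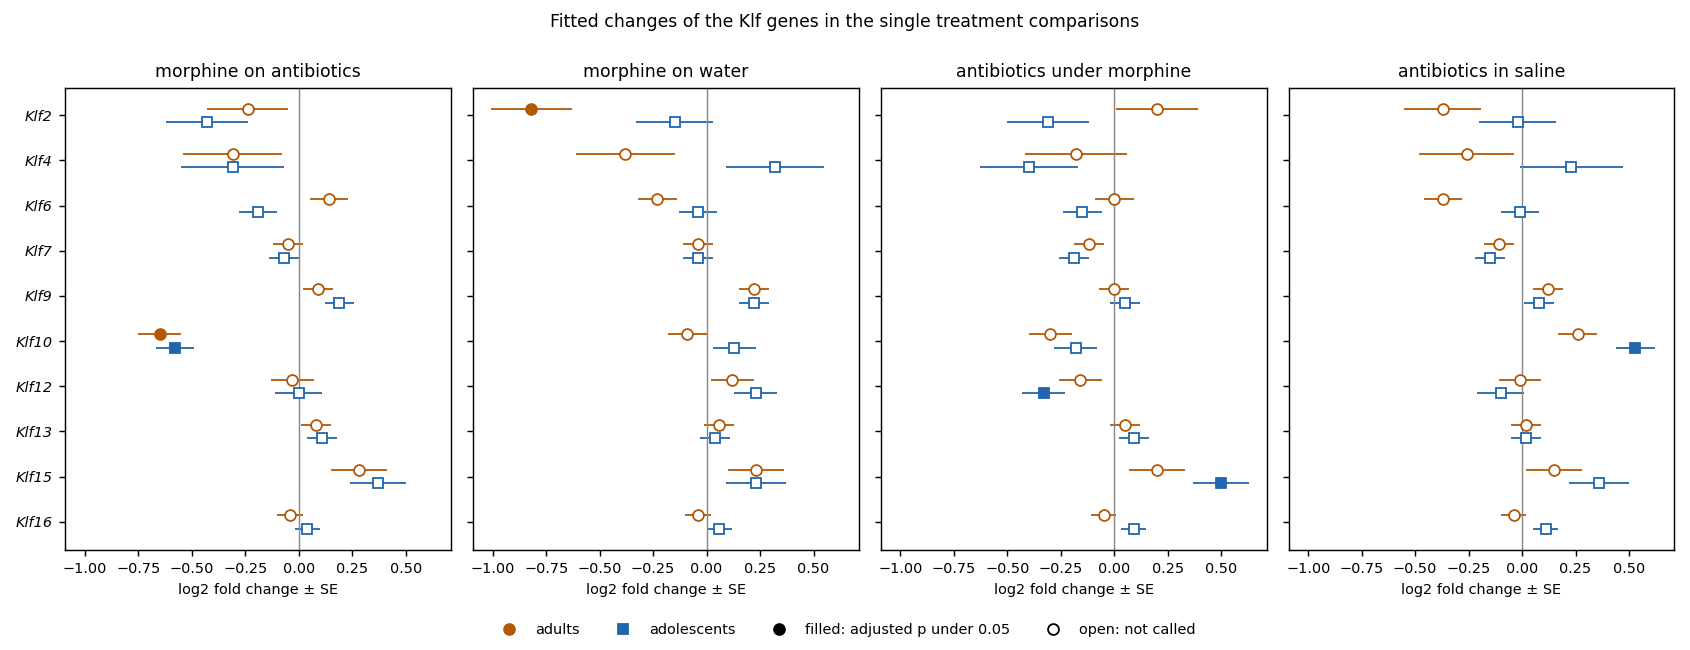
Log2 fold changes (x axis) ± SE of each Klf gene in the 4 single treatment comparisons, with circles for adults and squares for adolescents; filled symbols passed an adjusted p under 0.05, and the 2 filled adolescent values of Klf10 are those the family was selected on. Klf10 lies far left in both ages for morphine on antibiotics, at -0.65 in adults and -0.58 in adolescents.

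Klf10, also called TGF-beta inducible early gene 1, encodes a repressor that TGF-beta induces within a short time (chr15:38291463-38300706, minus strand). In adults its level was 31.1, 34.7, 31.9, 28.8 and 36.6 CPM with antibiotics and morphine, against 47.1, 50.4, 41.6, 68.2 and 47.7 CPM with antibiotics and saline. Every morphine library lay below every saline library, although 1 saline library stood well above the others; such a gap held for 1 of 10 members and for 1.36% of all tested genes. The fall of 0.65 ± 0.10 on the log2 scale passed the test (SE; edgeR adjusted p = 0.000125), and it held without any single library, at -0.71 to -0.52. On water the adult levels were 45, 38.9, 42.2, 33.3 and 41 CPM with morphine, against 44.2, 44.2, 41.5, 40.1 and 42.9 CPM with saline. These groups overlapped, and the log2 fold change of -0.09 did not pass (edgeR adjusted p = 0.791).

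In adolescents Klf10 stood at 35.8, 30.9, 33.9, 39.9 and 37.6 CPM with antibiotics and morphine, against 50.1, 45.7, 56.6, 56.3 and 58.3 CPM with antibiotics and saline. Again the groups did not overlap, and the log2 fold change was -0.58 ± 0.09 (SE). On water the levels were 39.8, 47.7, 39.4, 36.4 and 38.6 CPM with morphine, against 37.1, 31, 37.1, 42 and 37.1 CPM with saline. There the groups overlapped, and morphine gave a log2 fold change of 0.13 (edgeR adjusted p = 0.551).

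**Figure D4:**
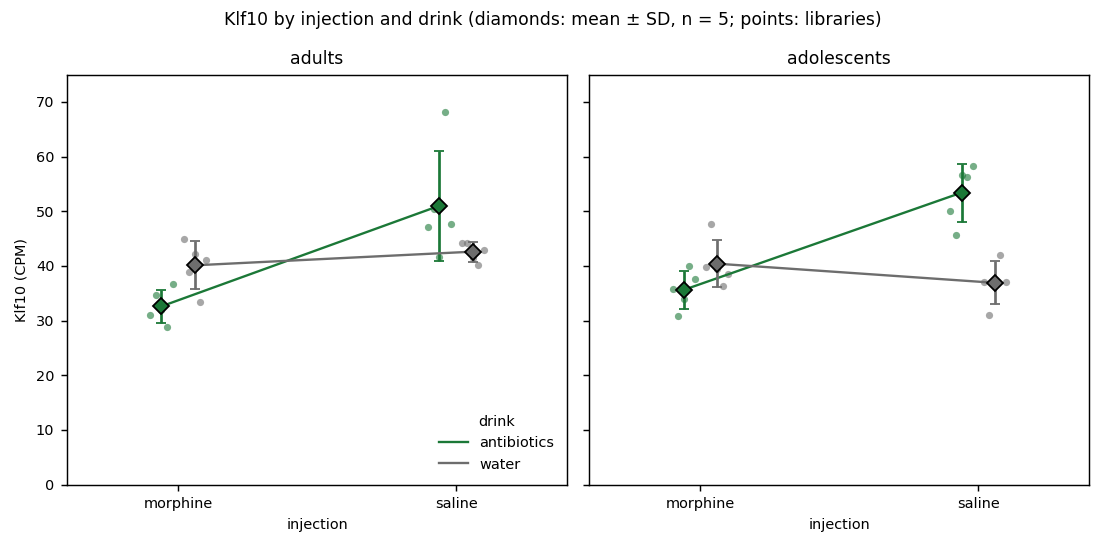
Klf10 in CPM (y axis) under morphine and saline, for antibiotics (green) and water (grey), with points for libraries and diamonds for the mean ± SD (n = 5). With antibiotics the mean is 32.6 CPM under morphine against 51.0 CPM under saline in adults, and 35.6 against 53.4 CPM in adolescents.

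The antibiotics and saline group held the highest mean of Klf10 at both ages, 51.0 ± 10.1 CPM in adults and 53.4 ± 5.31 CPM in adolescents, against 42.6 ± 1.81 and 36.9 ± 3.91 CPM with water and saline (SD, n = 5 each). In saline-injected adolescents the log2 fold change of antibiotics over water was 0.53 ± 0.09 with no overlap, as in 1.81% of all tested genes, from which nothing is read, and without antibiotics-saline replicate 5 it was 0.50. In saline-injected adults it was 0.26 ± 0.09 and did not pass (edgeR adjusted p = 0.306). Under morphine antibiotics gave -0.30 ± 0.10 in adults (edgeR adjusted p = 0.306) and -0.18 ± 0.10 in adolescents (edgeR adjusted p = 0.246). The effect of morphine with antibiotics minus that on water came to -0.56 ± 0.13 on the log2 scale in adults, where no gene was called (edgeR adjusted p = 0.391), and to -0.72 ± 0.13 in adolescents. In adults 1214 genes had an unadjusted p under 0.05 in this difference, and DESeq2 called 1. The adolescent difference is built from the comparisons that the family was selected on, so nothing is read from Klf10 being the 1 of 10 members past the threshold there, as were 1.24% of all tested genes. The difference between the ages in the morphine effect on antibiotics was -0.06 (adults minus adolescents) and in the antibiotic effect under saline -0.27 ± 0.13, and neither passed (edgeR adjusted p = 0.976 and 0.483). Averaged over both drinks and ages, the log2 fold change of Klf10 with morphine was -0.30 ± 0.05, a description because the average contains a comparison that the family was selected on.

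Genes of the TGF-beta pathway, from which Klf10 takes its other name, gave mixed results. Of 18 measured members, 2 rose and 1 fell with morphine on average, where 4.35% of all tested genes were called. Smad3, a transducer of the signal, rose by 0.28 ± 0.03 (edgeR adjusted p = 5.45e-09), the corepressor Ski rose by 0.12 ± 0.03 (edgeR adjusted p = 0.00841), and the inhibitory Smad7 fell by 0.24 ± 0.04 on the log2 scale (edgeR adjusted p = 0.000264). The median of the 18 was -0.01, against 0.00 for all tested genes. Over 40 libraries, with the age mean subtracted from log2 CPM, the genes whose pattern was most like that of Klf10 were Scg2, a secretory granule protein, at r = 0.69, the ERK phosphatase Dusp6 at 0.68 and the kinase gene Stk40 at 0.67. With the group mean subtracted r was 0.43, 0.31 and 0.16.

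Klf9, a hormone-induced repressor that restrains neurite growth, was the most abundant member per kilobase, and it was higher with morphine. In adolescents on water it stood at 245, 268, 251, 247 and 264 CPM with morphine, against 203, 233, 241, 241 and 177 CPM with saline. Those groups did not overlap, which held for 2 of 10 members (the other was Klf12, also higher) and for 2.38% of all tested genes. On antibiotics the adolescent levels were 256, 238, 286, 256 and 284 CPM with morphine, against 221, 227, 234, 219 and 254 CPM with saline, where 1 saline library reached into the morphine range. In adults on antibiotics they were 213, 270, 246, 254 and 273 CPM with morphine, against 258, 221, 236, 208 and 253 CPM with saline, which overlapped. Adults on water had 250, 248, 263, 218 and 280 CPM with morphine, against 223, 216, 203, 209 and 230 CPM with saline, where 1 morphine library lay within the saline range.

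None of these 4 comparisons passed alone for Klf9, at log2 fold changes of 0.09 to 0.22 (edgeR adjusted p = 0.141 to 0.875). Their average, 0.18 ± 0.04, did (SE; edgeR adjusted p = 0.000858), and all 4 were positive. It stayed between 0.16 and 0.19 without any single library. Antibiotics averaged 0.06 for Klf9 and did not pass (edgeR adjusted p = 0.311). Its pattern was most like those of the cholesterol ester hydrolase gene Nceh1 (r = 0.88), the sodium, calcium and potassium exchanger gene Slc24a2 (0.86) and the potassium channel gene Kcna1 (0.86), over 40 libraries with the age mean subtracted.

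Klf15, induced by glucocorticoids and known for control of amino acid and glucose metabolism, was higher with morphine and higher with antibiotics. In adolescents given morphine it stood at 27.9, 36.9, 37.4, 29.2 and 22.1 CPM with antibiotics, against 19.3, 22.2, 22.5, 22.9 and 22 CPM with water. Of the antibiotics libraries 4 lay above all water libraries and 1, replicate 5, lay among them. The log2 fold change was 0.50 ± 0.13 (SE; edgeR adjusted p = 0.0127), and it was 0.60 without replicate 5 (edgeR adjusted p = 0.0013). Without replicate 2 or 3 of the antibiotics and morphine group it was 0.43 each time and no longer passed (edgeR adjusted p = 0.0692 and 0.0611).

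In saline-injected adolescents Klf15 had 21.8, 22.9, 26, 25.6 and 22.6 CPM with antibiotics, against 15.7, 17.9, 14.6, 20 and 24.1 CPM with water. Here 1 water library reached into the antibiotics range, and the log2 fold change of 0.36 ± 0.14 did not pass (edgeR adjusted p = 0.36). Adults had 27.4, 31, 28, 25.1 and 22.4 CPM with antibiotics and morphine, against 21.9, 28.1, 15.6, 30 and 20.2 CPM with water and morphine. Under saline the adults had 24.6, 23.9, 19, 23.3 and 19.4 CPM with antibiotics, against 20.9, 18.9, 21.5, 19.2 and 19 CPM with water. Both adult pairs overlapped, and neither log2 fold change, 0.20 ± 0.13 and 0.15 ± 0.13, passed (edgeR adjusted p = 0.741 and 0.766).

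Averaged over both injections and ages, antibiotics raised Klf15 by 0.30 ± 0.07 on the log2 scale (SE; edgeR adjusted p = 0.00307), and it rose by 0.28 ± 0.07 with morphine (edgeR adjusted p = 0.00832). All 4 single comparisons behind each average were positive. For morphine they were 0.28 ± 0.13 on antibiotics and 0.23 ± 0.13 on water in adults, and 0.37 ± 0.13 on antibiotics and 0.23 ± 0.14 on water in adolescents, none of them called. Without adolescent antibiotics-morphine replicate 5 the adolescent value on antibiotics was 0.47 and passed (edgeR adjusted p = 0.0224). The genes most like Klf15 were the GTPase activator gene Arhgap11a, the cold-inducible RNA-binding protein gene Cirbp and the stress-induced gene Sesn1, each at r = 0.77 with the age mean subtracted.

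Clock genes and glucocorticoid-responsive genes were set beside Klf9 and Klf15 as their known inputs. Both lists were chosen with earlier results of these data known. Their part in the changes of Klf9 and Klf15 was not tested. Of 19 clock genes, 13 rose and 2 fell with morphine on average, where 4.35% of all tested genes were called. Their median log2 fold change was 0.31 against 0.00 for all tested genes. Tef and Dbp, transcription factors driven by the clock, rose by 0.32 ± 0.02 and 0.63 ± 0.04 (edgeR adjusted p = 3.16e-14 each). Of 20 glucocorticoid-responsive genes, 8 rose and none fell with antibiotics on average, where 7.5% of all tested genes were called. Their median was 0.14. Among them Fkbp5, a chaperone of the glucocorticoid receptor, rose by 0.40 ± 0.06 (edgeR adjusted p = 5.64e-06) and Hif3a by 0.65 ± 0.10 (edgeR adjusted p = 6e-05). With morphine 5 of these 20 rose and 4 fell, beside 4.35% of all tested genes called, with a median of 0.03. Over 40 libraries with the age mean subtracted, r with the mean of the clock list was 0.65 for Klf9, 0.47 for Klf15 and -0.34 for Klf10, and r with the mean of the glucocorticoid list was 0.24 for Klf9, 0.54 for Klf15 and -0.04 for Klf10. With the group mean subtracted r with the clock list was 0.11 for Klf9, -0.10 for Klf15 and 0.13 for Klf10, and with the glucocorticoid list 0.18 for Klf9, 0.34 for Klf15 and -0.04 for Klf10.

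Klf2, a factor of vessel lining cells that responds to blood flow, fell with morphine in adults on water. It had 8.67, 11.1, 7.27, 8.74 and 10.5 CPM with water and morphine, against 12.4, 16.3, 18.6, 18.5 and 15.9 CPM with water and saline. No morphine library reached the lowest saline library, and this held for 1 of 10 members and for 2.51% of all tested genes. The log2 fold change was -0.82 ± 0.19 (SE; edgeR adjusted p = 0.0274). The call was lost without water-saline replicate 2, 3, 4 or 5 or water-morphine replicate 1 or 3, at -0.84 to -0.75 (edgeR adjusted p = 0.0555 to 0.11). On antibiotics the adults had 11.1, 8.95, 13.5, 11.7 and 7.81 CPM with morphine, against 10.4, 10.5, 13.7, 12.8 and 15.8 CPM with saline, which overlapped (log2 fold change -0.24 ± 0.19, edgeR adjusted p = 0.884).

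Adolescents on antibiotics had 9.33, 10.4, 9.96, 10.2 and 9.08 CPM of Klf2 with morphine, against 16.1, 12.6, 11.7, 12.7 and 13 CPM with saline. These did not overlap, as in 4.09% of all tested genes; the other such member, Klf10, is one of the values the family was selected on. The log2 fold change of -0.43 ± 0.19 for Klf2 was not called (edgeR adjusted p = 0.223), and it was at an adjusted p of 0.0376 when only the compared groups were fitted. On water the adolescents had 10.4, 10.1, 14.1, 15.9 and 10.2 CPM with morphine, against 10.1, 8.35, 11, 14 and 23.6 CPM with saline. These overlapped, 1 saline library stood far above the rest, and the log2 fold change was -0.15 with it and 0.14 without it. The average over both drinks and ages, -0.41 ± 0.09, passed (edgeR adjusted p = 0.00553), at -0.45 to -0.34 without any single library.

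Klf4, a pluripotency factor that is also found in vessel linings, had the lowest level of the 10 and was called in no comparison. Its group means ran from 5.6 to 8.56 CPM, with the highest in adults on water and saline and the lowest in adolescents on antibiotics and morphine. Its SDs of 1.01 to 2.56 CPM were wide beside these means. With the group mean subtracted, Klf4 had r = 0.58 with Klf2 over 40 libraries (Spearman's rho = 0.49), and r = 0.49 without the 2 libraries farthest from the median of Klf2. Within groups Klf4 had r = 0.73 with the mean of the 17 endothelial markers, 0.65 with microglia, 0.61 with astrocyte, 0.59 with oligodendrocyte precursor and 0.53 with mural and fibroblast markers. For Klf2 these were 0.60, 0.48, 0.49, 0.45 and 0.58, so neither gene followed the endothelial list alone.

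The endothelial list is described for morphine only, and 4.35% of all tested genes were called with morphine on average. With morphine on average Slc2a1, the glucose transporter of the blood-brain barrier, rose by 0.25 ± 0.05 (edgeR adjusted p = 0.00132) and the tight junction gene Cldn5 fell by 0.36 ± 0.07 on the log2 scale (edgeR adjusted p = 0.00139), while the other 15 were not called. In adults on water, where Klf2 fell, the summed level of the 17 markers was 516 to 685 CPM with morphine against 496 to 613 CPM with saline, none was called and none was at 0. In the same pair of groups the oligodendrocyte markers summed to 1200 to 1620 CPM with morphine against 1020 to 1140 CPM with saline. These sums did not overlap, as in 2.51% of all tested genes taken singly. The mural and fibroblast markers summed to 327 to 432 against 378 to 448 CPM. In bulk tissue, fewer cells of a type and less RNA per cell cannot be told apart. Klf2 also moved with the immediate early genes, whose transcription follows neuronal activity. Of 29 measured, 19 fell and none rose with morphine on average, where 4.35% of all tested genes were called. This list was chosen with earlier results of these data known. Its genes had a median of -0.42. Their summed level in adults on water was 1460 to 1690 CPM with morphine against 1830 to 2480 CPM with saline. Klf2 had r = 0.69 with the mean of this list when the age mean was subtracted and 0.42 when the group mean was, and its part in the fall of Klf2 was not tested. The genes most like Klf2 were Sik1, a kinase induced by activity, at r = 0.73, the manganese exporter gene Slc30a10 at 0.70 and Cnih2, an auxiliary subunit of AMPA receptors, at 0.67.

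Klf7 promotes axon growth in mouse neurons and was lower with antibiotics on average, at -0.14 ± 0.04 (SE; edgeR adjusted p = 0.0106). In adolescents given morphine it stood at 55.8, 45.5, 51.6, 55.2 and 62.1 CPM with antibiotics, against 70, 65.5, 59.9, 55.7 and 55.8 CPM with water. Those groups overlapped, and the log2 fold change of -0.19 ± 0.07 was not called (edgeR adjusted p = 0.107), while without antibiotics-morphine replicate 5 it was -0.23 and called (edgeR adjusted p = 0.0287). The other 3 antibiotic comparisons were also negative, at -0.15 in saline-injected adolescents, -0.12 in adults under morphine and -0.11 in saline-injected adults, and none was called. Exons of Klf7 overlap the lincRNA Gm26649 on the opposite strand over 39.31% of their length, and since the strand of counting is not given, its counts are uncertain. The genes most like it were Diras2, Tppp and Erc1, at r = 0.79, 0.78 and 0.77 with the age mean subtracted.

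Klf6, the other member known to support axon growth, had its lowest group mean in saline-injected adults on antibiotics. There it stood at 49.5, 45.2, 62.7, 45.5 and 49.4 CPM with antibiotics, against 61.6, 66.7, 66.3, 66.3 and 64.1 CPM with water. Of the antibiotics libraries 4 lay below all water libraries, and replicate 3 lay within their range. The log2 fold change of -0.37 ± 0.09 did not pass (edgeR adjusted p = 0.0804). Without replicate 3 it was -0.46 and passed (edgeR adjusted p = 0.0135), and at -0.37 it also passed with the replicate number as a block (edgeR adjusted p = 0.0371), without the filter on low counts (edgeR adjusted p = 0.00146), in a fit of the compared groups alone (edgeR adjusted p = 0.0445) and with DESeq2 (adjusted p = 0.0258). No member was without overlap in that comparison or in adults under morphine, where 1.77% and 1.44% of all tested genes were. Averaged over both injections and ages, antibiotics gave -0.13 ± 0.04 for Klf6 (edgeR adjusted p = 0.0563). Of 8 tested axon growth genes (10 listed), none was called with antibiotics in saline-injected adults (median log2 fold change -0.06). With antibiotics on average 1 was lower, Tubb3, at -0.12 ± 0.03 (edgeR adjusted p = 0.0121), where 7.5% of all tested genes were called (list median -0.07). In adolescents under morphine 3 were lower (Tubb3, Stmn2 and Basp1) and none higher, where 7.56% of all tested genes were called, and in the other 2 antibiotic comparisons none was called.

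Klf12 encodes a repressor that works through the corepressor CtBP. In adolescents given morphine it had 22.6, 26.7, 28.4, 26.6 and 31.8 CPM with antibiotics, against 36.6, 36.3, 32.2, 34.1 and 31.9 CPM with water. The highest antibiotics library lay just under the lowest water library, and such a gap held for 1 of 10 members and for 5.92% of all tested genes. The log2 fold change was -0.33 ± 0.10 (SE; edgeR adjusted p = 0.0355). It lost its call without water-morphine replicate 1, 2 or 4 or antibiotics-morphine replicate 1, 2, 3 or 4, at -0.33 to -0.26 (edgeR adjusted p = 0.0591 to 0.115). On water the same adolescent morphine libraries lay above all saline libraries, which had 27, 31.2, 30.4, 29 and 28.2 CPM, and that log2 fold change of 0.23 ± 0.10 was not called (edgeR adjusted p = 0.315). Adults exceeded adolescents by 0.18 ± 0.05 on average (edgeR adjusted p = 0.0121). Genes most like Klf12 were Nfib, a factor of glial and neuronal development, the tankyrase gene Tnks2 and Agfg1, each at r = 0.76 with the age mean subtracted.

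Klf16, a repressor known in mice to act on dopamine receptor promoters, differed between the 2 age groups and was called in no treatment comparison. In mice given antibiotics and morphine it stood at 67.7, 61.1, 62.5, 63.4 and 62.7 CPM in adults, against 72.2, 76.3, 78.9, 75.2 and 71.4 CPM in adolescents. The log2 fold change was -0.24 ± 0.06 (adults minus adolescents, SE, edgeR adjusted p = 0.0356), with 1 of 10 members called where 1.04% of all tested genes were. The call was lost without replicate 2, 3 or 5 of the adults or 2, 3 or 4 of the adolescents, at -0.25 to -0.23 (edgeR adjusted p = 0.0559 to 0.088). In water and saline the ages were level, at 63.7, 70, 62.6, 73.8 and 66.1 CPM in adults, against 69.4, 63.8, 66.1, 64.2 and 73.7 CPM in adolescents. The average over the 4 treatments was -0.12 ± 0.03 (edgeR adjusted p = 0.00249). Its closest patterns were those of Cd3eap, Agap3 and Prr7, at r = 0.62, 0.59 and 0.57.

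Klf13, a repressor that binds Sin3A, was called in no comparison. Its group means ran from 206 to 230 CPM, and the highest was 1.12 times the lowest, the narrowest range of the 10 members. The widest were those of Klf2 at 1.76 times, Klf15 at 1.66 times and Klf10 at 1.64 times. The ages gave no call among the 10 members, by edgeR or DESeq2, in water and saline (0.257% of all tested genes were called), water and morphine (0.928%) or antibiotics and saline (5.97%), where 2, 0 and 3 members had an unadjusted p under 0.05. No member was called by edgeR or DESeq2 for a difference between the ages in the effect of antibiotics, where 0.0224% of all tested genes were called in saline and 0.00559% under morphine, with 2 and 0 members at an unadjusted p under 0.05. For the effect of morphine edgeR called 0% of all tested genes on water and on antibiotics, while 1788 and 1151 genes, 2 and 1 members among them, lay under 0.05 before adjustment, and by DESeq2 48 and 0 genes were called, none of them a member. For the morphine effect on water, Klf2 and Klf4 had the largest of these differences, at -0.66 ± 0.26 and -0.70 ± 0.32 (adults minus adolescents; edgeR adjusted p = 0.379 and 0.465).

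The relatives of the family gave few calls. None of the 4 other tested Klf genes was called in any comparison. Of the 8 tested Sp genes, which bind GC boxes and share the zinc fingers, 2 were called, both with age on average. Sp4 was at 0.15 ± 0.05 (edgeR adjusted p = 0.0352) and Sp5 at -0.68 ± 0.24 (edgeR adjusted p = 0.0381), with Sp5 at a mean of 0.721 CPM. There 17.9% of all tested genes were called, which is near that share, so nothing is read from the count. Of 13 genes for known Klf partners, 2 rose with morphine on average, where 4.35% of all tested genes were called. These were the acetyltransferases Crebbp, by 0.14 ± 0.03, and Ep300, by 0.11 ± 0.03 (edgeR adjusted p = 0.00344 and 0.032). With antibiotics on average Crebbp rose by 0.11 ± 0.03 and Sap30, a subunit of the Sin3 complex, by 0.39 ± 0.10 (edgeR adjusted p = 0.0247 and 0.00696). In that average 7.5% of all tested genes were called.

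Within groups some pairs of members ran opposed and others together. With the group mean subtracted from log2 CPM, Klf15 ran against Klf6 (r = -0.75, Spearman's rho = -0.66) and Klf7 (r = -0.74, rho = -0.67) over 40 libraries. Without the 2 libraries farthest from the median of Klf6 the first r was -0.70, and without the 2 farthest from the median of Klf7 the second was -0.67. Klf12 and Klf13 ran together (r = 0.64, rho = 0.56), as did Klf7 and Klf12 (0.56, rho = 0.50) and Klf6 and Klf7 (0.55, rho = 0.41), while Klf9 and Klf16 were opposed (-0.58, rho = -0.51). Against the mean of the 13 excitatory neuron markers r was 0.80 for Klf7, 0.71 for Klf6, 0.68 for Klf9, 0.60 for Klf13 and 0.58 for Klf12. It was -0.73 for Klf15, -0.50 for Klf2 and -0.44 for Klf4, while Klf10 at 0.24 and Klf16 at -0.23 lay between. The 10 interneuron markers did not give this order. With their mean r was -0.26 for Klf7, -0.33 for Klf6, 0.02 for Klf9, -0.13 for Klf13 and -0.20 for Klf12. It was 0.31 for Klf15, 0.08 for Klf2 and 0.48 for Klf4. These are descriptions, because the points share libraries, scaling and any difference in dissected tissue. In the comparison that gave calls for Klf15 and Klf12, antibiotics in adolescents under morphine, the summed excitatory neuron markers were 7130 to 7720 CPM with antibiotics against 7230 to 7450 CPM with water, 1 of 13 was lower (Neurod6, by 0.55 ± 0.13 on the log2 scale, edgeR adjusted p = 0.00891), the median was -0.13, and none was at 0. The excitatory sum follows its most abundant genes, among them Camk2a and Slc17a7 at means of 4320 and 1870 CPM with antibiotics. In this comparison 7.56% of all tested genes were called. Other lists moved in different directions there. Striatal neuron markers summed to 289 to 298 CPM with antibiotics against 254 to 276 CPM with water, without overlap, as in 5.92% of all tested genes taken singly. Not every marker followed this sum, and the mean of Drd1 was 7.23 CPM with antibiotics against 8.98 CPM with water. Oligodendrocyte markers summed to 1430 to 2210 against 1330 to 1610 CPM, and astrocyte markers to 3970 to 5000 against 4510 to 5050 CPM. The part of tissue makeup in those calls was not tested.

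**Figure D5:**
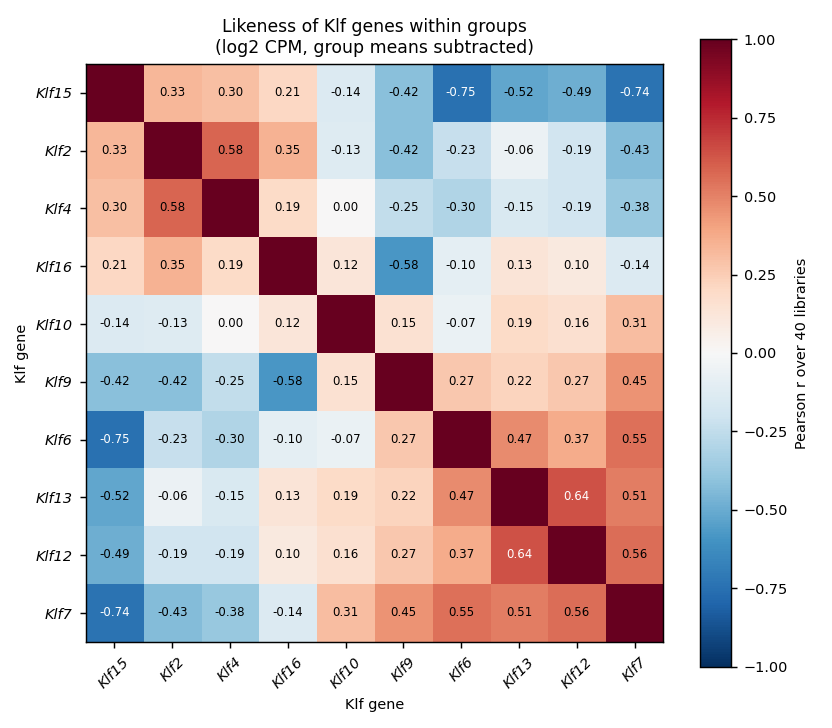
Pearson r between each pair of Klf genes (rows and columns) over 40 libraries, from log2 CPM with the group mean subtracted; red marks pairs that ran together and blue pairs that ran opposed. Klf15 is opposed to Klf6 and Klf7, at -0.75 and -0.74.

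Across the 8 members with a promoter, the 250 bases before the RefSeq start were searched on both strands. For Klf7 and Klf12 this stretch lies inside the annotated gene. For Klf12 it is chr14:100149797-100150046, in a gene that spans chr14:99870632-100284679. A CACCC box stood in 6 of the 8, against 52.01% of 32851 promoters of the same length, and a GC box (GGGCGG) in 6 of the 8, against 32.74%. An E-box (CACGTG) was present in 3 of the 8, Klf4, Klf6 and Klf15, against 6.02% of all promoters, and the half-site TGACG in 6 of the 8, against 17.77%. The full cAMP response element TGACGTCA, which contains that half-site, the glucocorticoid half-site TGTTCT and the D-box TTATGTAA were in none of the 8 and in 1.55%, 16.08% and 0.82% of all promoters. Of the genes that differed with morphine on average, Klf15 carried both an E-box and a CACCC box in this window, and Klf2 and Klf9 carried a CACCC box and no E-box. The 8 stretches held from 48.0% (Klf12) to 74.0% (Klf4) G and C, against a median of 52.4% over all promoters. The shares of all promoters were not matched for this, so an excess of GC-rich motifs is not read as a trait of the family. A match is a run of letters and was not tested as a binding site.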

How the data were processed

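The authors deposited raw read counts of 56980 genes in 40 libraries as 1 table, with no normalization. The submitters' processing notes name STAR 2.7.10a, DESeq2 and the build mm10. Which annotation and strand setting were used for counting is not stated in the sources read. Identifiers stripped of their version were matched to symbols of the GENCODE reference annotation (91.4% matched), and 0 rows lacked a gene.

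Counts were analysed in R 4.3.3 with edgeR 4.0.16. Genes were filtered with filterByExpr over the 8 groups (minimum count 10, minimum total 15; 17880 genes kept) and scaled by TMM. Robust quasi-likelihood models had 1 coefficient per group. Two-sided F tests of 21 comparisons received Benjamini-Hochberg adjustment across the tested genes, with a threshold of 0.05. The SE is the absolute log2 fold change over the square root of F. Likeness is Pearson r of log2 CPM (prior count 2), and the 3 closest genes are named for each called member, among genes averaging 1 CPM or more whose symbol is not a clone name. Up to 3 called genes of a list are named, by smallest p. The fit was tested on simulated data.

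Alternatives were RLE factors, no filter, DESeq2 1.42.0 on all genes, a replicate block, only the compared groups, and leaving out each library. The members and lists were chosen with earlier results of these data known. Replicates differed beyond sampling noise, with a chi-square per degree of freedom of 2.17 to 15.44 over 80 pairs.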

Additional observations from a re-analysis of the deposited data

Results flagged for a closer look

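In 4 of 80 sets of 5 replicate libraries, 1 per gene and group, a single library lay far from the others by Dixon's criterion, which chance meets in about 1 of 20 sets. Klf6 was at 62.7 CPM in replicate 3 of the adults on antibiotics and saline, against 45.2 to 49.5 CPM in the other 4. Klf13 was at 282 CPM in replicate 3 of the adults on water and morphine, against 199 to 222 CPM in the others, and at 230 CPM in replicate 4 of the adolescents on water and saline, against 196 to 205 CPM. Klf15 was at 19.3 CPM in replicate 1 of the adolescents on water and morphine, against 22 to 22.9 CPM. In adolescents the effect of morphine on Klf10 differed between antibiotics and water, by -0.72 on the log2 scale. The adolescent comparisons of Klf10 were known when the family was chosen.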

How the results depend on the processing

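The calls of Klf2, Klf9 and Klf15 with morphine on average and the 2 with antibiotics on average (Klf7 and Klf15) kept their direction and threshold under all alternatives run. So did the 2 with age on average (Klf12 and Klf16) and the fall of Klf10 with morphine on antibiotics in adults. The family was chosen with earlier results of these data known, so these calls may not be independent of that choice. Counts of called members moved elsewhere. Without the filter on low counts they were 2 for morphine on antibiotics in adolescents (1 in the analysis as reported), 1 for antibiotics in saline-injected adults (0), 1 for the interaction in adults (0; Klf10 at -0.55, edgeR adjusted p = 0.016), 0 for age in antibiotics and morphine (1), and 4 for antibiotics on average (2). With only the compared groups they were 2 for morphine on antibiotics in adolescents and 1 for antibiotics in saline-injected adults, and DESeq2 gave 1 for antibiotics in saline-injected adults. Without single libraries the counts ran from 1 to 2 for morphine on antibiotics, 0 to 1 for antibiotics in saline and 0 to 3 for antibiotics under morphine in adolescents, from 0 to 1 for morphine on water and for antibiotics in saline in adults, from 0 to 1 for age in antibiotics and saline and in antibiotics and morphine, and from 2 to 4 for antibiotics on average. The cause was not tested.

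Log2 fold changes near 0, none of them called, changed sign. Klf12 for morphine on antibiotics in adolescents was 0.00 with RLE factors, DESeq2 and the compared groups alone. Klf9 for antibiotics under morphine in adults was 0.00 with RLE factors, DESeq2, no filter and the block, and 0.01 with the compared groups. The block gave 0.01 for Klf2 with antibiotics in saline-injected adolescents and 0.00 for Klf10 with age on average. Leaving out single libraries gave, for morphine on water, -0.28 to 0.14 for Klf2 and -0.12 to 0.01 for Klf6 in adolescents and -0.05 to 0.08 for Klf13 in adults. For morphine on antibiotics it gave -0.06 to 0.06 for Klf12 in adolescents, and -0.12 to 0.02 for Klf12 and -0.08 to 0.02 for Klf16 in adults. For antibiotics in saline it gave -0.15 to 0.28 for Klf2, -0.08 to 0.06 for Klf6 and -0.01 to 0.06 for Klf13 in adolescents, and -0.08 to 0.06 for Klf12 and -0.03 to 0.07 for Klf13 in adults. For antibiotics under morphine in adults it gave -0.05 to 0.08 for Klf6 and -0.03 to 0.06 for Klf9. The averages ran from -0.01 to 0.02 for Klf16 with morphine, and from -0.05 to 0.06 for Klf2 and -0.04 to 0.01 for Klf10 with age.

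Deviations of libraries with the same replicate number within an age correlated at a median of 0.017 (-0.087 to 0.158), with 4 of 60 pairs over 0.1. For other numbers the median was -0.005, with 9 of 240 pairs over 0.1. These correlations summarize many genes at once and cannot exclude that the numbers pair the libraries. With a block for the replicate number inside each age, 1 member, Klf6, was called with antibiotics in saline-injected adults against 0 without it, and Klf6 passed with antibiotics on average (edgeR adjusted p = 0.0384). Counts of all called genes with the block were 33 against 9 for antibiotics in saline and 8 against 5 for antibiotics under morphine in adults, 11 against 7 for antibiotics in saline in adolescents, 2 against 0 for the adult interaction, and 10 against 4 and 0 against 1 for the ages in these 2 antibiotic effects.

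Counts of all called genes depended on the tool. DESeq2 called 99 against 57 for morphine on water and 45 against 7 for antibiotics in saline in adolescents, 146 against 85, 58 against 38, 51 against 9 and 21 against 5 for morphine on water, morphine on antibiotics, antibiotics in saline and antibiotics under morphine in adults, and 457 against 221 for the adolescent interaction. For the ages it called 116 against 46 in water and saline, 366 against 166 in water and morphine and 442 against 186 in antibiotics and morphine, and for the ages in an effect 48 against 0 (morphine on water) and 42 against 4 (antibiotics in saline). In the same order, no filter gave 137, 70, 213, 61, 78, 44, 485, 139, 310, 321, 55 and 49, with 15 for the adult interaction, 13 for the ages in morphine on antibiotics and 4 for antibiotics under morphine. The compared groups alone gave 20 for morphine on water and 4 for antibiotics in saline in adolescents, 148, 15 and 3 for morphine on water, antibiotics in saline and antibiotics under morphine in adults, 19 for the ages in water and saline, and 1, 1 and 0 for the ages in morphine on water, antibiotics in saline and antibiotics under morphine. Without single libraries these counts ran from 33 to 63 and 214 to 970 for morphine on water and on antibiotics and from 0 to 13 and 634 to 2263 for antibiotics in saline and under morphine in adolescents, and in adults from 30 to 153, 15 to 32, 2 to 46 and 0 to 3. Klf4, at 31 to 105 counts per library, and Klf2, at 63 to 229, had the widest SEs of the members, so small changes of these genes were not detectable with these libraries. The part of sequencing depth in this was not tested.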
